A study of Arabidopsis thaliana with 8 samples.

Results

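The genes described are 9 plastid-encoded genes of Arabidopsis thaliana: RPOA (ATCG00740), RPOB (ATCG00190), RPOC1 (ATCG00180), RPOC2 (ATCG00170), ACCD (ATCG00500), CLPP (ATCG00670), YCF1 (ATCG01130) and the 2 copies of YCF2, YCF2.1 (ATCG00860) and YCF2.2 (ATCG01280). They are listed by locus identifier, as the plastid genes that are largely transcribed by the nuclear-encoded polymerase; no threshold on a measured value enters the list, but earlier results of these data were known when it was drawn up. They are 9 of the 36917 loci counted, 9 of 133 plastid-encoded loci and 9 of 88 plastid-encoded protein-coding loci. Total RNA was sequenced from whole seedlings, 5 days old, raised on medium with 1% sucrose under constant illumination (100 µmol photons m-2 s-1). The groups were irx3-2 on Murashige and Skoog (MS) medium with 50 µg/ml lincomycin, Col-0 on the same lincomycin medium, irx3-2 on MS medium, and Col-0 on MS medium, with 2 libraries each. Col-0 is the wild type, and irx3-2 carries an altered IRX3, which encodes the cellulose synthase subunit CESA7 of secondary cell walls; the lesion is not given in the labels. Lincomycin blocks translation on plastid ribosomes. Nothing in the labels tells if a group's 2 libraries stem from plants grown apart, and the p-values therefore cover the spread between these samples, which may be technical.

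Chloroplast genes are transcribed by a phage-type polymerase encoded in the nucleus (NEP) and by a bacterial-type polymerase whose core is encoded in the plastid (PEP). RPOA, RPOB, RPOC1 and RPOC2 encode the alpha, beta, beta' and beta'' core subunits of PEP, which nuclear sigma factors and associated proteins complete. Because these subunits are made on plastid ribosomes, a block of plastid translation also stops the supply of new PEP core, and photosynthesis genes depend on PEP for most of their transcription. The other genes serve the plastid in general: ACCD encodes the beta subunit of the carboxyltransferase in the plastid acetyl-CoA carboxylase of fatty acid synthesis, CLPP a proteolytic subunit of the Clp protease, YCF1 a protein assigned to the inner envelope translocon, and YCF2 a protein assigned to the FtsH-type motor complex of protein import.

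The libraries held 15032240 to 19488440 counted reads. Plastid-encoded loci took 20.7% and 18.75% of them in irx3-2 on lincomycin and 20.43% and 19.57% in Col-0 on lincomycin, against 58.07% and 55.21% in irx3-2 on MS and 54.12% and 55.03% in Col-0 on MS. CESA7 stood at 293.8 and 401.2 normalized counts in irx3-2 and 221.8 and 209.6 in Col-0 on lincomycin, against 711.9 and 711.5 in irx3-2 and 265 and 277.9 in Col-0 on MS; without a known lesion, this level does not check the labels. All markers of leaf mesophyll, root, phloem and xylem were above 0 in every library, while of 3 shoot apical meristem markers only 1 was above 0 in both Col-0 libraries on MS. The meristem markers summed to 51.1 to 58.81 normalized counts in irx3-2 and 64.73 to 76.22 in Col-0 on lincomycin, against 27.54 to 509.7 in irx3-2 and 11.64 to 980.5 in Col-0 on MS. The high sums on MS came from 1 marker, WUS, at 481.4 in irx3-2 MS replicate 2 and 956 in Col-0 MS replicate 2. It stood at 5.508 in irx3-2 MS replicate 1 and 0 in Col-0 MS replicate 3, while the marker STM stood at 10.18 to 24.51 on MS. With size factors 2 of 3 xylem markers fell on lincomycin in each genotype, 1 of 6 root markers fell in irx3-2 and 2 of 6 fell in Col-0, and 2 of 3 phloem markers and 1 of 2 tested meristem markers rose in Col-0; relative to total counted reads 3 of 3 xylem and 3 of 3 phloem markers rose in each genotype, as did 4 of 6 root markers in irx3-2 and 3 of 6 in Col-0. The part of these shifts in the results was not tested. The 4 leaf markers, which serve photosynthesis, summed to 26840 to 30080 normalized counts in irx3-2 and 27020 to 28950 in Col-0 on lincomycin, against 491500 to 647000 in irx3-2 and 412200 to 479300 in Col-0 on MS. In RNA from whole seedlings, fewer cells of a type and less RNA per cell cannot be told apart. The nuclear 18S ribosomal RNA locus AT3G41768 varied within groups, with 107700 and 9009 normalized counts in irx3-2 on lincomycin, 24090 and 28710 in Col-0 on lincomycin, against 33850 and 502.6 in irx3-2 and 249.7 and 701900 in Col-0 on MS.

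On lincomycin the 9 genes took a far larger share of the plastid reads. Together they made up 21.89% and 19.95% of the plastid reads in irx3-2 and 21.07% and 20.34% in Col-0 on lincomycin, against 1.234% and 1.171% in irx3-2 and 1.302% and 1.477% in Col-0 on MS. The 4 lincomycin libraries lay far above the 4 MS libraries. The share of the 9 genes among all counted reads was 4.53% and 3.741% in irx3-2 and 4.305% and 3.98% in Col-0 on lincomycin, against 0.7164% and 0.6464% in irx3-2 and 0.7046% and 0.8128% in Col-0 on MS. These shares need no size factor, but the share of plastid reads also moves with the other plastid genes: PSBA and RBCL, the D1 protein of photosystem II and the large subunit of Rubisco, took 8.832% to 11.82% of the plastid reads on lincomycin and 61.8% to 72.29% on MS.

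**Figure D1:**
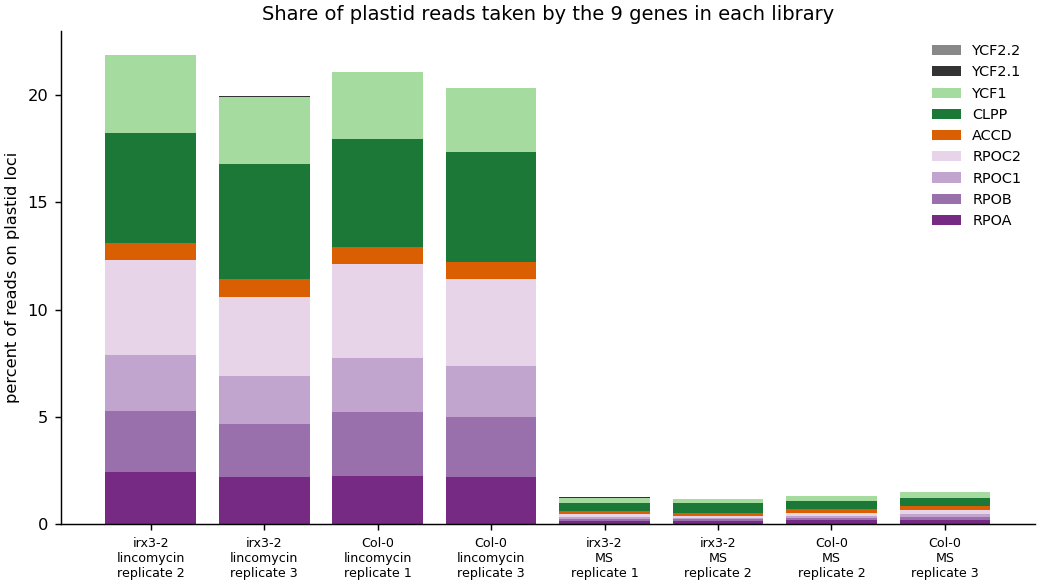
Share of the reads on plastid loci (percent, vertical axis) taken by each of the 9 genes, stacked, in each of the 8 libraries. The 4 lincomycin libraries stand between 19.95% and 21.89% and the 4 MS libraries between 1.171% and 1.477%; the YCF2 copies are too low to see.

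Normalized counts, in which each library is divided by its size factor, also moved. All 9 genes passed the low-value filter and were tested. In irx3-2 on lincomycin against irx3-2 on MS, 8 of the 9 rose and ACCD fell (limma adjusted p below 0.05 for 9 of 9), where 33.8% of all 20251 tested genes were called, 15.8% as higher and 18.0% as lower. In Col-0, 6 rose, ACCD fell and the YCF2 copies were not called, so 7 of 9 passed, against 29.2% of all tested genes, 12.0% as higher and 17.2% as lower. These counts include the YCF2 copies, whose level was not measurable at 34 to 230 reads per library. The genotypes differed in these counts only by the YCF2 copies. Apart from them, RPOA, RPOB, RPOC1, RPOC2, CLPP and YCF1 rose and ACCD fell in each genotype. The median log2 change of the 9 genes was 1.11 in irx3-2 and 0.88 in Col-0, beside 0.036 and 0.024 over all tested genes. The lincomycin and MS libraries did not overlap for 9 of 9 genes in irx3-2 and for 7 of 9 in Col-0; over all genes, 34.6% lay wholly above and 32.7% wholly below in irx3-2, and 33.7% and 33.4% in Col-0. Dividing by total counted reads in place of size factors raised the median of all genes by 1.26 in irx3-2 and by 1.302 in Col-0, made 15196 of 16054 calls in irx3-2 and 15505 of 16396 in Col-0 calls of a rise (3197 of 6835 and 2431 of 5921 with size factors), and put 9 of 9 members higher in each genotype. Changes are given relative to the size factors. Between 6 and 9 members were called in irx3-2, and 6 or 7 in Col-0, when any 1 library was left out.

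**Figure D2:**
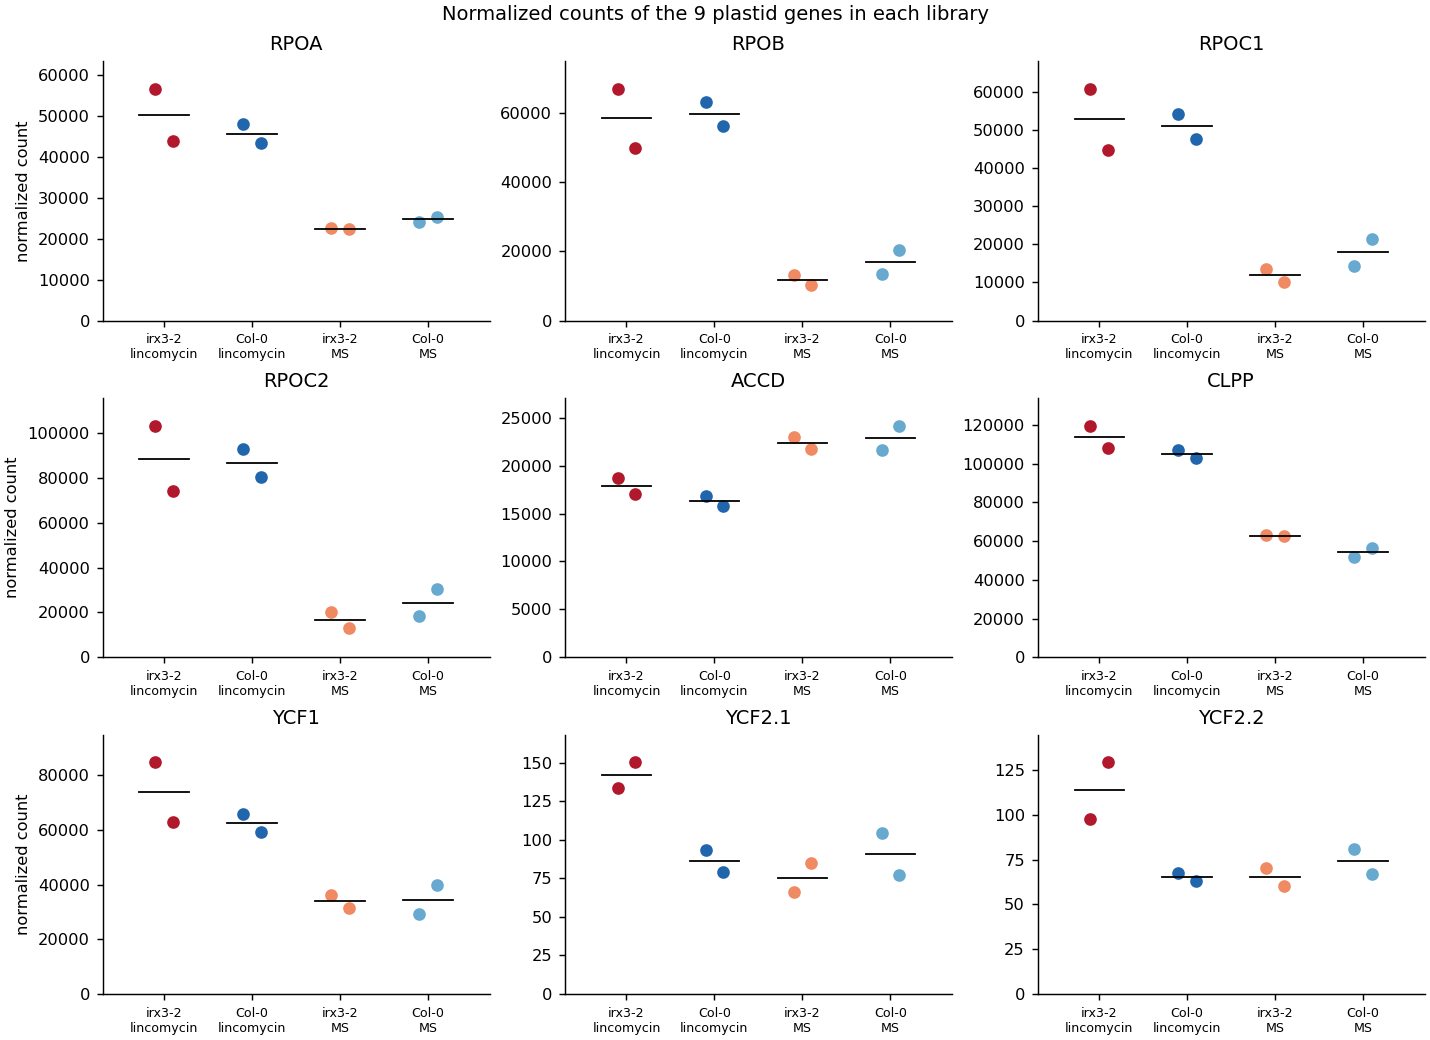
Normalized counts (vertical axis, linear and starting at 0) of each gene in every library; points are libraries and the line is the mean of the 2. RPOB, RPOC1, RPOC2, RPOA, CLPP and YCF1 lie higher on lincomycin and ACCD lies lower, while the YCF2 copies stand at 60.2 to 150.3 normalized counts; relative to total counted reads ACCD is higher on lincomycin.

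RPOB, RPOC1 and RPOC2, the genes of the large PEP subunits, had the largest rises. They lie head to tail on the minus strand of the plastid genome (RefSeq TAIR10.1), RPOB at plastid:23111-26329, RPOC1 at plastid:20251-23084 with 1 intron, and RPOC2 at plastid:15938-20068. The short spacer is shown because it joins the coding sequences of RPOB and RPOC1: 26 bases separate the stop codon of RPOB from the start codon of RPOC1, both in capitals (plastid:23082-23113, minus strand).
RPOB-RPOC1 junction: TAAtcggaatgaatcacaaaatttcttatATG
The gap between RPOC1 and RPOC2 is 182 bases. No overlapping gene is annotated at these loci.

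RPOB had 67025 and 50039.5 normalized counts in irx3-2 on lincomycin, against 13231 and 10213.5 in irx3-2 on MS. The Col-0 libraries had 63099 and 56258 on lincomycin, against 13344 and 20503.5 on MS. Every lincomycin library thus lay above every MS library of its genotype. RPOB rose 4.98-fold in irx3-2 (log2 2.32 ± 0.21 SE, limma adjusted p = 1.34e-05) and 3.60-fold in Col-0 (1.85 ± 0.21, limma adjusted p = 7.97e-05).

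RPOC2, the longest of the 4 subunit genes, had 103395 and 74009 normalized counts in irx3-2 on lincomycin, against 20266 and 13245 in irx3-2 on MS. In Col-0 the values were 92861 and 80393 on lincomycin, against 18207 and 30296 on MS. The groups did not overlap in either genotype. RPOC2 rose 5.34-fold in irx3-2 (log2 2.42 ± 0.26 SE, limma adjusted p = 4.69e-05) and 3.68-fold in Col-0 (1.88 ± 0.26, limma adjusted p = 3.31e-04), and ranked first of the 87 tested plastid protein genes in each genotype.

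RPOC1 had 60742 and 44700.3 normalized counts in irx3-2 on lincomycin, against 13582 and 10036.5 in irx3-2 on MS. Col-0 libraries on lincomycin had 54093 and 47693, against 14231 and 21499 on MS. It rose 4.46-fold in irx3-2 (log2 2.16 ± 0.22 SE, limma adjusted p = 2.66e-05) and 2.90-fold in Col-0 (1.54 ± 0.22, limma adjusted p = 3.55e-04). RPOB and RPOC1 ranked behind RPOC2 in each genotype. These calls stood in every fit with 1 library left out, with a highest adjusted p of 0.00952, for RPOC1 in Col-0.

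The 3 genes kept a narrow ratio to each other within libraries. Reads on RPOC2 per read on RPOB were 1.43 to 1.54 on lincomycin and 1.3 to 1.53 on MS, which overlapped. Reads on RPOC1 per read on RPOB were 0.848 to 0.906 on lincomycin and 0.983 to 1.07 on MS, so that RPOC1 was lower against RPOB in all 4 lincomycin libraries. The Col-0 libraries differed more on MS than on lincomycin, and RPOB was 1.54 times as high in the higher as in the lower Col-0 library on MS. In irx3-2 this ratio for RPOB was 1.3 on MS and slightly higher on lincomycin. The library with more nuclear 18S also had more RPOB within 3 groups (irx3-2 on each medium and Col-0 on MS) and had less RPOB in Col-0 on lincomycin; the part of this in the results was not tested. Stretches of these genes also match other places in the genome at 95% identity or more, 12.8% of RPOB in the mitochondrion, 8.5% of RPOC1 on chromosome 2 and 4.5% of RPOC2 on chromosome 5, and the treatment of reads with more than 1 possible origin is not given.

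RPOA, the gene of the alpha subunit, rose less. It lies elsewhere, at plastid:77901-78890 on the minus strand. RPOA had 56519 and 43919 normalized counts in irx3-2 on lincomycin, against 22462 and 22418 in irx3-2 on MS. In Col-0 it had 47928 and 43317 on lincomycin, against 24078 and 25374 on MS. The groups did not overlap. RPOA rose 2.22-fold in irx3-2 (log2 1.15 ± 0.14 SE, limma adjusted p = 9.69e-05) and 1.84-fold in Col-0 (0.88 ± 0.14, limma adjusted p = 7.23e-04).

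ACCD was the 1 gene of the 9 that fell, by a small step, and with total counted reads in place of size factors it rose. It lies at plastid:57075-58541 on the plus strand between RBCL and PSAI, which encodes a small subunit of photosystem I. ACCD had 18718 and 17044 normalized counts in irx3-2 on lincomycin, against 23047 and 21712 in irx3-2 on MS. In Col-0 it had 16881 and 15828 on lincomycin, against 21599 and 24192 on MS. Every lincomycin library lay below every MS library. ACCD fell 1.25-fold in irx3-2 (log2 -0.32 ± 0.11 SE, limma adjusted p = 0.0442) and 1.40-fold in Col-0 (-0.48 ± 0.11, limma adjusted p = 0.00774). Relative to total counted reads its log2 changes were 0.96 in irx3-2 and 0.83 in Col-0, which are below the 1.26 and 1.302 by which that scaling moved the median gene.

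The call for ACCD in irx3-2 was lost with no filter on low values (limma adjusted p = 0.0924), in a fit of the 2 irx3-2 groups alone (0.113) and with a replicate block (0.203). It was also lost without irx3-2 lincomycin replicate 2 (limma adjusted p = 0.0909) or 3 (0.234), Col-0 lincomycin replicate 1 (0.0817) or 3 (0.0813), or irx3-2 MS replicate 1 (0.102). In Col-0 it was lost without Col-0 lincomycin replicate 3 (limma adjusted p = 0.0863) or Col-0 MS replicate 3 (0.0559). A ratio within a library needs no scaling. Reads on RPOB per read on ACCD were 3.58 and 2.94 in irx3-2 and 3.74 and 3.55 in Col-0 on lincomycin, against 0.574 and 0.47 in irx3-2 and 0.618 and 0.848 in Col-0 on MS. ACCD and RPOB therefore changed unequally in all 4 lincomycin libraries.

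CLPP had the highest normalized count of the 9 genes in every library. It lies at plastid:69910-71882 on the minus strand, with 2 introns, and its start faces that of PSBB, an antenna protein gene of photosystem II, across 488 bases. CLPP had 119637 and 107983 normalized counts in irx3-2 on lincomycin, against 63116 and 62609 in irx3-2 on MS. On lincomycin Col-0 had 107230 and 102895, against 51762 and 56466 on MS. The groups lay well apart. CLPP rose 1.81-fold in irx3-2 (log2 0.85 ± 0.14 SE, limma adjusted p = 8.01e-04) and 1.94-fold in Col-0 (0.96 ± 0.14, limma adjusted p = 4.22e-04).

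The spacer between CLPP and PSBB is shown because the genes on its sides moved in opposite directions. The window covers 240 bases, from 300 to 61 bases before the CLPP start codon (plastid:71943-72182, minus strand), and the capitals mark the core motif known from NEP promoters, YRTA, which stands for the word CATA, the word CGTA, the word TATA or the word TGTA.
CLPP-PSBB spacer: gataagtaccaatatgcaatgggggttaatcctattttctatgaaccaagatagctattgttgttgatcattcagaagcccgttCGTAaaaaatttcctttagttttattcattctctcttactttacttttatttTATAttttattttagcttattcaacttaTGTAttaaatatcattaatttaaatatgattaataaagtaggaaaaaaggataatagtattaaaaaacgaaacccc
The CLPP window held 3 of these words on the strand of the gene. At least 1 such word stood in 100% of the 66 windows of the same length before plastid protein genes, with a median of 5 in the 59 windows of other genes, so these letters do not set CLPP apart. The bacterial-type promoter boxes, searched on both strands, were TTGACA in 10.6% of the windows and TATAAT in 39.4%. Among the 7 windows of these genes, YCF1 alone held them, and it held each. A match of letters is a description and not a promoter.

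Reads on CLPP per read on PSBB were 8.87 and 7.95 in irx3-2 and 7.06 and 6.92 in Col-0 on lincomycin, against 0.168 and 0.234 in irx3-2 and 0.196 and 0.171 in Col-0 on MS. PSBB itself fell by 4.55 ± 0.18 in irx3-2 and by 4.30 ± 0.18 in Col-0 on the log2 scale. RPL20, a ribosomal protein gene 1044 bases behind CLPP on the same strand, rose by 1.56 ± 0.21 in irx3-2 and 1.31 ± 0.21 in Col-0.

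YCF1 is a long gene of 5361 bases at plastid:123884-129244 on the minus strand. It had 84795 and 63086 normalized counts in irx3-2 on lincomycin, against 36395 and 31579 in irx3-2 on MS. In Col-0 it had 65717 and 59243 on lincomycin, against 29210 and 39913 on MS. The groups did not overlap. YCF1 rose 2.16-fold in irx3-2 (log2 1.11 ± 0.19 SE, limma adjusted p = 0.001001) and 1.83-fold in Col-0 (0.87 ± 0.19, limma adjusted p = 0.00519). The call in Col-0 was lost without Col-0 lincomycin replicate 1 (limma adjusted p = 0.0655) or Col-0 MS replicate 2 (0.0561). RPS15, a ribosomal protein gene 321 bases behind it on the same strand, rose by 1.39 ± 0.21 in irx3-2 and by 1.00 ± 0.21 in Col-0, and lost its call in Col-0 without Col-0 lincomycin replicate 1 (limma adjusted p = 0.0527).

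The first 1030 bases of YCF1, 19.2% of it, also exist in a truncated copy of 1032 bases at the other end of the inverted repeat. The lines show where they part: the shared bases are in lower case and the bases after position 1030 in capitals (YCF1 at plastid:128185-128254, minus strand; the copy at plastid:110395-110436, plus strand).
YCF1: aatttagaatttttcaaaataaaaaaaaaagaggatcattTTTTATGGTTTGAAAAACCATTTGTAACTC
truncated copy: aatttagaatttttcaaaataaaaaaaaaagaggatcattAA
Reads within the shared stretch cannot be assigned to YCF1 or its truncated copy by sequence. Inside it, 533 bases, 9.94% of YCF1, also match the mitochondrion, and as many match chromosome 2, at 95% identity or more. Mitochondrial loci took 1.47% to 1.583% of the counted reads on lincomycin, against 0.509% to 0.7572% on MS. The part of such reads in the counts of YCF1 and RPOB was not tested. The locus of the truncated copy had 216 to 1392 normalized counts, far below YCF1. Unlike YCF1, this locus fell, by 1.81 ± 0.35 in irx3-2 (limma adjusted p = 0.00263) and 1.90 ± 0.35 in Col-0 (0.00223) on the log2 scale. The end of the truncated copy overlaps NDHF (plastid:110398-112638, minus strand), which fell too, by 1.47 ± 0.12 and 1.67 ± 0.12. The part of this overlap in the counts was not tested.

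The YCF2 copies are the genes whose level could not be read. The copies, at plastid:86474-93358 on the plus strand and plastid:145291-152175 on the minus strand, are identical over all 6885 bases, so a read inside the gene fits each equally. Their first 60 bases show this, with the start codon in capitals (plastid:86474-86533, plus strand; plastid:152116-152175, minus strand).
YCF2 first copy: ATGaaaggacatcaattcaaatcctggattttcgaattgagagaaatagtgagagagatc
YCF2 second copy: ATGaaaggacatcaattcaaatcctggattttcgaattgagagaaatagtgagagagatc
The files do not pair YCF2.1 and YCF2.2 with these positions. The loci held 48 to 230 and 34 to 198 reads per library. RPL23, a ribosomal protein gene in the same repeat, was sparse too, with 6 to 19 and 2 to 17 reads on its copies. Other loci of the repeat varied, with 46 to 93 reads on NDHB.1, 14 to 101 on RPS7.1, 15 to 99 on RPL2.2 and 87 to 1090 on RPL2.1.

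YCF2.1 had 133.4 and 150.3 normalized counts in irx3-2 on lincomycin, against 66.1 and 84.95 in irx3-2 on MS. In Col-0 it had 93.56 and 79.3 on lincomycin, against 104.2 and 77.1 on MS. YCF2.2 had 97.94 and 129.4 in irx3-2 on lincomycin, against 70.2 and 60.2 in irx3-2 on MS, and 67.7 and 63.3 in Col-0 on lincomycin, against 81.2 and 66.9 in Col-0 on MS. In irx3-2 the lincomycin libraries lay above the MS libraries for each copy, and in Col-0 they overlapped.

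The copies passed in irx3-2, YCF2.1 with a log2 change of 0.91 ± 0.25 SE (limma adjusted p = 0.0164) and YCF2.2 with 0.78 ± 0.26 (limma adjusted p = 0.0374). In Col-0 the changes were -0.057 ± 0.25 (limma adjusted p = 0.892) and -0.17 ± 0.26 (limma adjusted p = 0.667), and relative to total counted reads 1.245 and 1.13. The call for YCF2.1 was lost without irx3-2 lincomycin replicate 2 (limma adjusted p = 0.0696) or 3 (0.112) or irx3-2 MS replicate 1 (0.0641). That for YCF2.2 was lost by DESeq2 (adjusted p = 0.106), with no filter on low values (limma adjusted p = 0.0547), in a fit of the 2 irx3-2 groups alone (0.0632) and with a replicate block (0.0893). It was also lost without irx3-2 lincomycin replicate 2 (limma adjusted p = 0.0680) or 3 (0.241), Col-0 lincomycin replicate 1 (0.0668) or 3 (0.0662), or irx3-2 MS replicate 2 (0.117). These values describe reads left at a repeated sequence, and the level of YCF2 was not measurable from them.

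**Figure D3:**
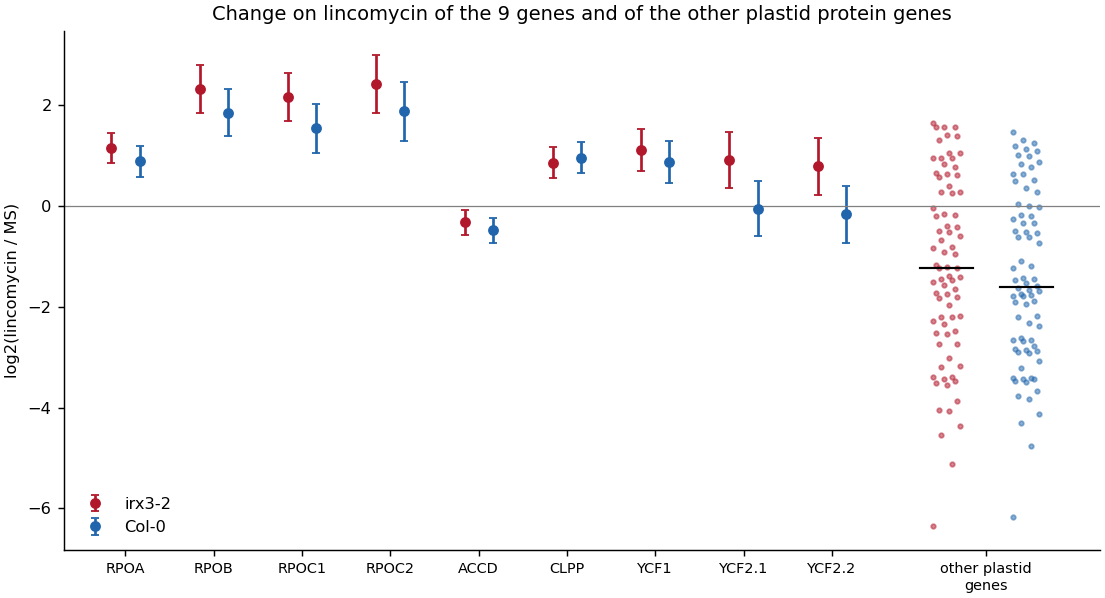
Log2 change on lincomycin relative to MS (vertical axis) of each gene with its 95% confidence interval, in irx3-2 (red) and Col-0 (blue), beside the 78 other tested plastid protein genes as dots with their median as a line. RPOC2, RPOB and RPOC1 stand highest and ACCD lies below 0 with size factors (above 0 relative to total counted reads). The medians of the other genes are -1.23 and -1.61, given with size factors only.

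The 9 genes were set against the rest of the plastid genome. Of the 78 other tested plastid protein genes, 13 rose and 47 fell in irx3-2, with a median log2 change of -1.23. In Col-0 12 rose and 51 fell, with a median of -1.61. These results are given with size factors only. Scaling to total counted reads raised the median of all genes by 1.26 in irx3-2 and by 1.302 in Col-0. The list of 33 photosynthesis genes covers the photosystems, the cytochrome b6f complex, ATP synthase and RBCL, without the NDH genes, YCF3 and YCF4. NDHH, YCF3 and YCF4 were not called in either genotype, nor were NDHD and NDHB.2 in irx3-2, while the remaining NDH genes fell. Of the 33 listed genes, 33 fell in each genotype, with medians of -2.75 in irx3-2 and -2.89 in Col-0. Relative to total counted reads 26 of them fell and 1 rose in irx3-2, and 27 fell and 1 rose in Col-0. Within this list the extremes were as follows. RBCL fell most, with log2 changes of -6.35 ± 0.23 in irx3-2 and -6.17 ± 0.23 in Col-0, and PETA, the cytochrome f gene, fell least, by 0.59 ± 0.14 and 0.61 ± 0.14. Relative to total counted reads PETA rose, by 0.69 and 0.70, and its calls were lost without irx3-2 lincomycin replicate 3 in irx3-2 (limma adjusted p = 0.0602) and without Col-0 lincomycin replicate 1 (0.0552) or 3 (0.0831) in Col-0. The 20 listed plastid-encoded ribosomal protein genes were mixed, as 12 rose and 2 fell in irx3-2 and 11 rose and 2 fell in Col-0. Relative to total counted reads 18 of them rose in each genotype. The list leaves out RPS12A, RPS12B, RPS12C, RPS7.2, RPL2.2 and RPL23.2. Of these, RPS12A rose by 1.31 in irx3-2 and 1.135 in Col-0. RPL23.2, at 2 to 17 reads per library, fell in Col-0 (log2 -2.77) and was not called in irx3-2. The others left out were not called in either genotype. RPS14 fell by 1.74 ± 0.23 in irx3-2 and 2.32 ± 0.23 in Col-0, the call in irx3-2 being lost relative to total counted reads (log2 -0.46, limma adjusted p = 0.0658).

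With size factors, changes of opposite sign stood side by side along the genome. RPS2, a ribosomal protein gene 214 bases behind RPOC2 on the same strand, rose by 1.57 ± 0.29 in irx3-2 and 1.08 ± 0.29 in Col-0 on the log2 scale. Its call in Col-0 was lost without Col-0 lincomycin replicate 1 (limma adjusted p = 0.125) or 3 (0.0700) or Col-0 MS replicate 2 (0.134). ATPI, an ATP synthase subunit gene that comes next and was added after its values were seen, fell by 1.16 ± 0.24 in irx3-2 and 1.19 ± 0.24 in Col-0 with size factors, but relative to total counted reads its changes were above 0 and not called, at 0.12 in each genotype (limma adjusted p = 0.616 and 0.594). Reads on RPOC2 per read on ATPI were 4.38 to 4.74 on lincomycin and 0.38 to 0.571 on MS.

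PETN, a small cytochrome b6f subunit gene, lies 1759 bases before RPOB on the opposite strand and fell, with log2 changes of -3.39 ± 0.096 in irx3-2 and -3.41 ± 0.096 in Col-0. Past the end of RPOA, 228 bases away on the opposite strand, PETD, a cytochrome b6f subunit gene, fell, with log2 changes of -3.44 ± 0.16 in irx3-2 and -2.89 ± 0.16 in Col-0. Around ACCD, RBCL ends 677 bases before it and PSAI starts 705 bases behind it on the same strand, and PSAI fell by 1.23 ± 0.12 in irx3-2 and 1.095 ± 0.12 in Col-0 with size factors, while relative to total counted reads its changes were above 0 and not called, at 0.047 and 0.22 (limma adjusted p = 0.749 and 0.136). Reads on ACCD per read on RBCL were 0.276 to 0.327 on lincomycin and 0.00473 to 0.00571 on MS. The changes of PETN, PETD, PSAI and ATPI kept their call in every fit with 1 library left out.

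**Figure D4:**
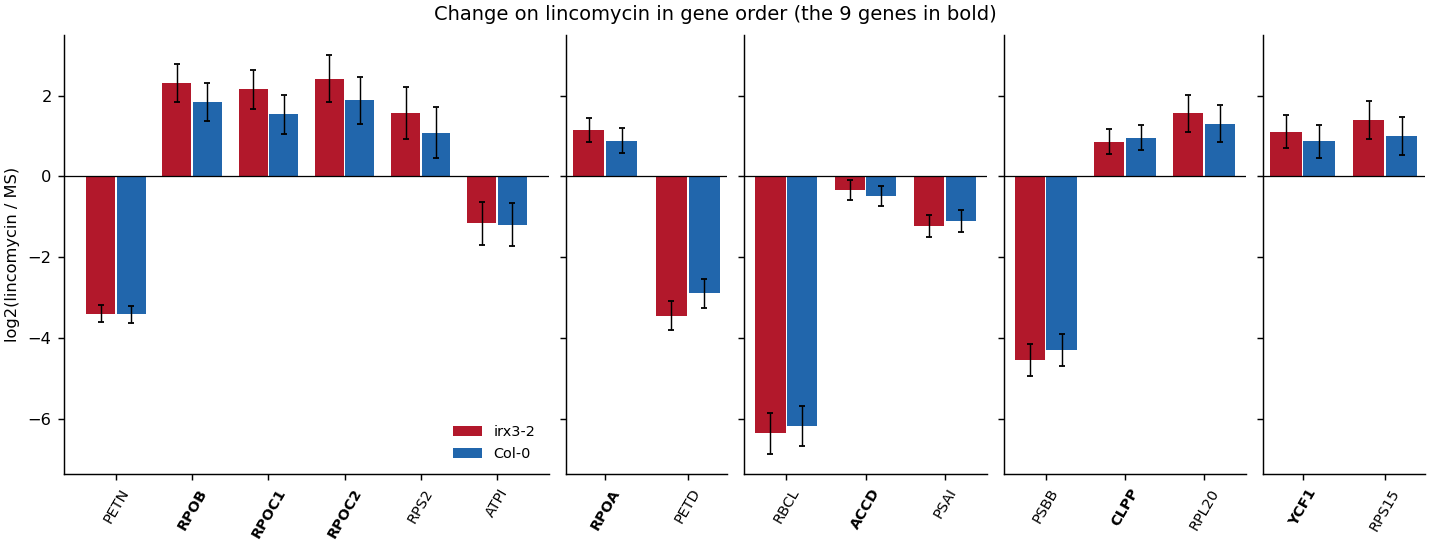
Log2 change on lincomycin relative to MS (vertical axis, bars with 95% confidence intervals) of the genes in bold and of the neighbours named in the text, in the order read along the genes' strand, in irx3-2 (red) and Col-0 (blue). RPOB, RPOC1, RPOC2 and RPS2 are above 0 between PETN and ATPI below it, and CLPP is above 0 beside PSBB at -4.55 and -4.30; ACCD, PSAI and ATPI turn positive relative to total counted reads.

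Levels were compared between the genes per kilobase of coding sequence. CLPP stood highest, at 192600 ± 13900 normalized counts per kilobase in irx3-2 (SD, n = 2) and 177800 ± 5190 in Col-0 on lincomycin, against 106400 ± 607 in irx3-2 and 91560 ± 5630 in Col-0 on MS. RPOA came next, with 50730 ± 9000 and 46080 ± 3290 in irx3-2 and Col-0 on lincomycin and 22670 ± 31.4 and 24980 ± 926 on MS. Over the whole gene with its introns, CLPP would stand at 57680 and 53250 on lincomycin and 31860 and 27430 on MS, still above RPOA, and whether intron reads were counted is not stated.

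The order of the other genes differed between the media. On lincomycin RPOC1, RPOC2 and RPOB followed per kilobase of coding sequence, with means of 25810, 21470 and 18180 normalized counts per kilobase in irx3-2 and 24910, 20970 and 18540 in Col-0, and YCF1 and ACCD came after them, with 13790 and 12190 in irx3-2 and 11650 and 11150 in Col-0. On MS ACCD came next after CLPP and RPOA, at 15260 ± 644 in irx3-2 and 15610 ± 1250 in Col-0, above RPOC1, YCF1, RPOC2 and RPOB at 5780, 6340, 4056 and 3642 in irx3-2 and 8744, 6447, 5871 and 5257 in Col-0. Over its whole gene with the intron, RPOC1 would stand at 18600 in irx3-2 and 17960 in Col-0 on lincomycin, below RPOC2 in each and below RPOB in Col-0, and at 4167 in irx3-2 and 6304 in Col-0 on MS, below YCF1 in each. Many neighbours in the order overlapped between libraries: RPOC2 with RPOB in all 4 groups, YCF1 with ACCD in each genotype on lincomycin, RPOC1 with YCF1 in each genotype on MS, RPOC1 with RPOC2 and RPOB with YCF1 in irx3-2 on lincomycin, and YCF1 with RPOC2 in Col-0 on MS. Within each library, however, these pairs kept the order of their group means per kilobase of coding sequence, with RPOC2 above RPOB in all 8 libraries. ACCD lay below RPOB in all 4 lincomycin libraries and above it in all 4 MS libraries.

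Between the genotypes none of the 9 genes passed. On lincomycin 0 of 9 genes differed between irx3-2 and Col-0 by limma, edgeR or DESeq2, where 5.68% of all tested genes were called by limma. At an unadjusted p below 0.05 there were 2, the YCF2 copies, with log2 differences of 0.71 ± 0.25 SE (limma adjusted p = 0.138) and 0.77 ± 0.26 (limma adjusted p = 0.119); fitted on the lincomycin groups alone, these 2 passed (limma adjusted p = 0.0223 and 0.0308). For the 3 large PEP subunits the differences were -0.041 for RPOB, 0.037 for RPOC1 and 0.018 for RPOC2, with 95% intervals of -0.51 to 0.43, -0.44 to 0.52 and -0.56 to 0.60. RPOA differed by 0.13 (-0.18 to 0.43), ACCD by 0.13 (-0.12 to 0.37), CLPP by 0.11 (-0.19 to 0.42) and YCF1 by 0.23 (-0.18 to 0.64). The intervals do not show equal levels: a difference of 1.4-fold in RPOC2 in either direction lies inside its interval.

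On MS 0 of 9 genes differed between irx3-2 and Col-0 by limma, edgeR or DESeq2, where 0.217% of all tested genes were called by limma. RPOB and RPOC1 had an unadjusted p below 0.05, with log2 differences of -0.51 ± 0.21 SE (limma adjusted p = 0.349) and -0.58 ± 0.22 (limma adjusted p = 0.310), and RPOC2 stood at -0.52 ± 0.26 (limma adjusted p = 0.421). For RPOA, RPOB and RPOC1 both irx3-2 libraries lay below both Col-0 libraries, as they did for 18.4% of all tested genes. For CLPP both lay above, and for RPOC2 and the remaining members the genotypes overlapped. Leaving out 1 library moved the RPOB difference over -0.82 to -0.20. ACCD and YCF1 differed by -0.031 (95% interval -0.28 to 0.21) and -0.010 (-0.42 to 0.40). RPOA differed by -0.14 (-0.44 to 0.17) and CLPP by 0.22 (-0.089 to 0.52).

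Whether the effect of lincomycin differed between irx3-2 and Col-0 was tested as an interaction, irx3-2 minus Col-0, the question that the series title poses for chloroplast development. By limma, edgeR and DESeq2 0 of 9 genes passed, where 0.657% of all tested genes were called by limma. The difference between the effects was 0.47 ± 0.30 SE for RPOB (limma adjusted p = 0.577), 0.62 ± 0.31 for RPOC1 (limma adjusted p = 0.444) and 0.54 ± 0.37 for RPOC2 (limma adjusted p = 0.608). RPOA stood at 0.27 ± 0.20, YCF1 at 0.24 ± 0.26, ACCD at 0.16 ± 0.16 and CLPP at -0.10 ± 0.20. The YCF2 copies had an unadjusted p below 0.05, at 0.97 ± 0.35 (limma adjusted p = 0.275) and 0.95 ± 0.36 (limma adjusted p = 0.296), on few reads. With 2 libraries a group the intervals are wide, for RPOC2 from -0.28 to 1.36 on the log2 scale.

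Nuclear genes for the proteins that work with these plastid products were counted by list. All 3 phage-type polymerase genes rose in each genotype, with medians of 1.08 in irx3-2 and 0.86 in Col-0. RPOTMP, of the polymerase sent to mitochondria and plastids, had 340.7 and 289.5 normalized counts in irx3-2 on lincomycin, against 121.2 and 63.71 in irx3-2 on MS, and 294.2 and 296.3 in Col-0 on lincomycin, against 107.2 and 114.9 in Col-0 on MS. RPOTMP rose by 1.82 ± 0.26 in irx3-2 and 1.40 ± 0.26 in Col-0. RPOTM, of the mitochondrial polymerase, rose by 0.96 ± 0.20 in irx3-2 and 0.58 ± 0.20 in Col-0, a call lost in irx3-2 without irx3-2 lincomycin replicate 2 (limma adjusted p = 0.0524) and in Col-0 without 1 of 5 libraries (0.0661 to 0.283). RPOTP, of the plastid polymerase, was named outside the rule after its values were seen and rose by 1.08 ± 0.11 in irx3-2 and 0.86 ± 0.11 in Col-0.

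The 6 sigma factor genes, whose products give PEP its promoter choice, went the other way with size factors: 4 fell and 0 rose in each genotype, with medians of -0.77 in irx3-2 and -1.06 in Col-0, while relative to total counted reads 3 rose and 1 fell in each. SIG4 fell most, by 1.76 ± 0.18 in irx3-2 and 1.97 ± 0.18 in Col-0. SIG6 fell least among the called, by 0.49 ± 0.12 in irx3-2 and 0.75 ± 0.12 in Col-0, but rose relative to total counted reads, by 0.78 and 0.57, and its call in irx3-2 was lost without irx3-2 lincomycin replicate 3 (limma adjusted p = 0.0862). Of the 12 PEP-associated protein genes 8 rose and 1 fell in irx3-2 and 2 rose and 3 fell in Col-0; relative to total counted reads 12 rose in irx3-2 and 11 in Col-0.

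FLN1, a kinase-like protein bound to PEP, had 1061 and 1066 normalized counts in irx3-2 on lincomycin, against 370.4 and 369.9 in irx3-2 on MS, and 785 and 727.2 in Col-0 on lincomycin, against 517.8 and 568.9 in Col-0 on MS. It rose by 1.52 ± 0.11 in irx3-2 and 0.48 ± 0.11 in Col-0, and was the 1 gene of the 12 to pass in the interaction, at 1.04 ± 0.15 (limma adjusted p = 0.0168). That call was lost without any 1 lincomycin library (limma adjusted p = 0.0871 to 0.161) or Col-0 MS replicate 3 (0.0572). PTAC10 rose by 0.63 ± 0.15 in Col-0, a call lost without 1 of 3 libraries (Col-0 lincomycin replicate 1 or 3, Col-0 MS replicate 2; limma adjusted p = 0.0759 to 0.0889). PTAC7 fell by 0.41 ± 0.12 in irx3-2 and 1.05 ± 0.12 in Col-0 with size factors, but relative to total counted reads it rose by 0.87 in irx3-2 and stood 0.26 higher in Col-0 without a call (limma adjusted p = 0.103). Its call in irx3-2 was lost without 1 of 3 libraries (irx3-2 lincomycin replicate 2 or 3, irx3-2 MS replicate 2; limma adjusted p = 0.0755 to 0.145).

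For ACCD, the 4 nuclear genes of the same acetyl-CoA carboxylase fell in irx3-2 and 3 of 4 fell in Col-0, with medians of -1.02 and -0.80; relative to total counted reads 2 rose and 1 fell in irx3-2, and 2 rose and 0 fell in Col-0. CAC1, the biotin carrier protein, fell by 2.18 ± 0.20 in irx3-2 and 1.33 ± 0.20 in Col-0, well beyond the fall of ACCD, but in Col-0 the call was lost relative to total counted reads (log2 -0.018, limma adjusted p = 0.941). CAC3, the alpha subunit of the carboxyltransferase to which ACCD gives the beta subunit, had 1714 and 2025 normalized counts in Col-0 on lincomycin, against 3177 and 3255 in Col-0 on MS, and fell by 0.79 ± 0.10 with size factors but rose by 0.53 relative to total counted reads. CAC2, the biotin carboxylase, fell by 0.33 ± 0.088 in irx3-2 with size factors but rose by 0.95 relative to total counted reads; the first call was lost without irx3-2 lincomycin replicate 2 (limma adjusted p = 0.0687) or 3 (0.0931).

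For CLPP, the 14 nuclear Clp genes mostly fell while the plastid gene rose: 8 fell and 1 rose in irx3-2, and 12 fell and 0 rose in Col-0, with medians of -0.42 and -0.88, whereas relative to total counted reads 13 and 8 of them rose. CLPP3, a proteolytic subunit, fell by 1.35 ± 0.11 in Col-0, and CLPS1, an adaptor, fell by 1.35 ± 0.13 in irx3-2; relative to total counted reads these calls were lost, at -0.036 (limma adjusted p = 0.795) and -0.075 (0.646). CLPC2, a chaperone subunit, rose by 0.73 ± 0.18 in irx3-2, a call lost without irx3-2 lincomycin replicate 2 (limma adjusted p = 0.131) or irx3-2 MS replicate 2 (0.0665). CLPR3 fell by 0.52 ± 0.12 in Col-0 with size factors but rose by 0.79 relative to total counted reads; the first call was lost without Col-0 lincomycin replicate 3 (limma adjusted p = 0.0745) or Col-0 MS replicate 2 (0.0554).

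Of the 3 translocon genes tied to YCF1, 1 rose in irx3-2 and 1 fell in Col-0 with size factors, while relative to total counted reads 2 rose and 0 fell in each genotype. TIC56 rose by 0.42 ± 0.14 in irx3-2, a call lost without 1 of 5 libraries (limma adjusted p = 0.0817 to 0.245), and TIC20-I fell by 1.13 ± 0.28 in Col-0. Relative to total counted reads TIC20-I stood 0.16 higher without a call (limma adjusted p = 0.619), and with size factors its call was lost without either Col-0 lincomycin library (limma adjusted p = 0.0776 and 0.0691). Of the 6 motor complex genes tied to YCF2, 3 rose in irx3-2 and 2 fell in Col-0 with size factors, while relative to total counted reads 6 rose in each genotype. FTSH12 rose most in irx3-2, by 1.21 ± 0.12, and FTSHI4 least, by 0.43 ± 0.12, lost without irx3-2 lincomycin replicate 2 (limma adjusted p = 0.199) or irx3-2 MS replicate 1 (0.0724). In Col-0 PDNAD-MDH, a malate dehydrogenase, fell by 0.40 ± 0.11, a call lost without 1 of 3 libraries (limma adjusted p up to 0.104), and FTSHI1 fell by 0.36 ± 0.12, a call lost without 1 of 5 libraries (limma adjusted p up to 0.301); relative to total counted reads these genes rose, by 0.91 and 0.96.

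**Figure D5:**
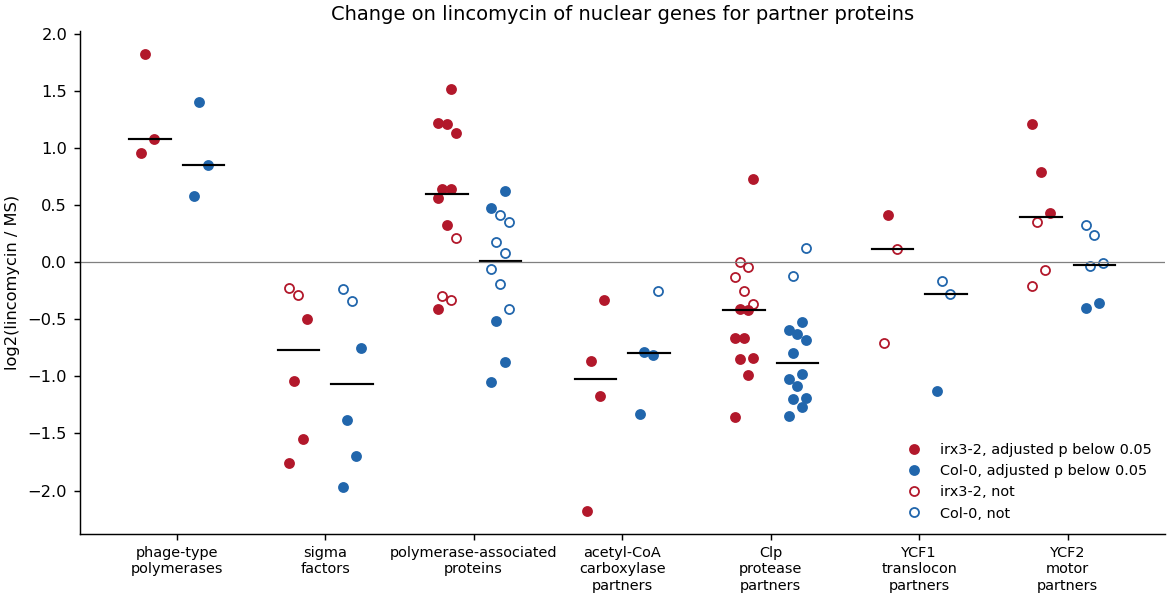
Log2 change on lincomycin relative to MS (vertical axis, size factors) of nuclear genes grouped by the plastid product they work with, in irx3-2 (red) and Col-0 (blue); filled points passed the test, open points did not, and lines are medians. The phage-type polymerases lie above 0 and the sigma factors, the carboxylase partners and most Clp partners below it, which relative to total counted reads holds for the polymerases but turns round for the medians of the other 3 lists.

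The tested genes with the most similar profile over the 8 libraries were found by the root mean square difference of centred log2 values. Within the group itself this measure was 0.0438 for RPOB, 0.0928 for RPOC1 and 0.0744 for RPOC2 against their mean profile. Outside it, AT3G28160 (0.127), NAC13 (AT1G32870, 0.166), AT4G04180 (0.19), AT1G30680 (0.193) and AT2G07806 (0.218), all nuclear loci, came nearest. For ACCD the nearest were CYP72A11 (0.0481), the plastid gene NDHD (0.049), GATB (0.0635), NPGR1 (0.0668) and AT2G16510 (0.0673). The measure describes likeness over libraries that mainly differ in lincomycin, and it was taken over 20242 genes.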

How the data were processed

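RNA sequencing of 8 libraries, 2 for each of 4 groups, was analysed with groups and replicate numbers from the labels. The submitters' processing notes name the TAIR10 build and list TopHat2 2.1.1, Trimmomatic, FastQC, DESeq2 and featureCounts; how strand and reads with several possible origins were treated is not given in the sources used here. The authors deposited 4 tables of 36917 loci with the same 8 columns, which per the file headers are normalized counts: a signal, since each library was divided by its own size factor. All values (100%) were whole multiples of 1 number per library to within 0.01, so whole reads were recovered. A log2 fold change and a p-value per gene and comparison were deposited too, per the file headers; these were used only to set calls side by side.

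The main test was limma 3.58.1 (R 4.3.3) with a mean-variance trend on log2(normalized count + 1), on genes that reached 10 normalized counts in 2 or more libraries, with 4 group means over all 8 libraries and Benjamini-Hochberg adjustment over all genes tested at 0.05. Because the deposited unit was no raw count, edgeR 4.0.16 and DESeq2 1.42.0 were run on the recovered reads as alternatives. Fold changes are on the log2(normalized count + 1) scale and errors are the SE of the fit. The alternatives were another pseudocount, filter or scaling, fits of 2 groups, a replicate block, those 2 tools, and leaving out each library. The fits were tested on simulated data.

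The members and gene lists were chosen with earlier results of these data known. Genes were named by rule: the members, their neighbours, the genes with the highest and lowest called change of each list in each lincomycin comparison, those called in the interaction, the 5 nearest profiles, and CESA7; some genes so named are not reported here. Positions and sequences are from RefSeq TAIR10.1, in which 66 of the 88 plastid protein-coding loci were paired by gene name. Motif windows were 240 bases long. Counting error weighs most on the YCF2 copies, with 34 to 230 reads per library.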

Additional observations from a re-analysis of the deposited data

Results flagged for a closer look

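FLN1, a PEP-associated protein encoded in the nucleus, stood out because the lincomycin effect differed between the genotypes. Its log2 change was 1.52 ± 0.11 SE in irx3-2 and 0.48 ± 0.11 in Col-0, and the difference was 1.04 ± 0.15 (limma adjusted p = 0.0168). The 2 irx3-2 libraries on lincomycin were above both Col-0 libraries on lincomycin, and the 2 irx3-2 libraries on MS were below both Col-0 libraries on MS. The call was lost in 5 of 8 fits with 1 library left out, with no filter on low values (limma adjusted p = 0.0542) and with a replicate block (0.1404). No such difference was called for any of the 9 plastid genes.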

How the results depend on the processing

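With 1 library left out, 6 to 9 of the 9 genes were called for lincomycin against MS in irx3-2 and 6 to 7 in Col-0, and 0 in the comparisons between genotypes and in the interaction. RPOA, RPOB, RPOC1, RPOC2 and CLPP kept their direction and call for lincomycin in each genotype under every alternative. Fitted on the 2 lincomycin groups alone, 2 genes, the YCF2 copies, were called between irx3-2 and Col-0, against 0 in the joint fit.

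Scaling to total counted reads turned these log2 changes round, since it moved the median gene by 1.26 and 1.302. In irx3-2 they became 0.96 for ACCD, 0.78 for SIG6, 0.87 for PTAC7, 0.95 for CAC2, 0.047 for PSAI, 0.12 for ATPI and 0.69 for PETA. In Col-0 they became 0.83 for ACCD, 1.245 for YCF2.1, 1.13 for YCF2.2, 0.16 for TIC20-I, 0.79 for CLPR3, 0.57 for SIG6, 0.53 for CAC3, 0.91 for PDNAD-MDH, 0.96 for FTSHI1, 0.26 for PTAC7, 0.22 for PSAI, 0.12 for ATPI and 0.70 for PETA. Size factors from nuclear genes alone were 0.9992 to 1 times those from all genes, so this setting was nearly the same scaling and tests little.

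Calls of other named genes were lost under some settings besides a left-out library. With no filter on low values this held for TIC56 in irx3-2, RPOTM, FTSHI1 and RPS2 in Col-0 and FLN1 in the interaction (limma adjusted p = 0.0542 to 0.0996). With a replicate block it held for TIC56, CAC2, FTSHI4 and PETA in irx3-2, RPOTM, PDNAD-MDH, PTAC10, FTSHI1 and RPS2 in Col-0 and FLN1 in the interaction (limma adjusted p = 0.0671 to 0.205). In fits of 2 groups it held for PETA in irx3-2 (limma adjusted p = 0.0542) and FTSHI1 in Col-0 (0.0549), and by DESeq2 for RPOTM (adjusted p = 0.0547), FTSHI1 (0.0744) and RPS2 (0.0681) in Col-0.

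The replicate numbers do not fully pair the libraries: the groups compared share 1 number each (irx3-2 on lincomycin and Col-0 on MS, which were not compared, share 2). Same-numbered libraries correlated in their deviations at -0.137 to 0.126. With 2 libraries a group these deviations are mirror images, so a shared batch was not tested. In irx3-2 and Col-0, MS replicate 2 had less nuclear 18S than the other MS library (502.6 and 249.7 against 33850 and 701900 normalized counts). It also had more of the meristem marker WUS (481.4 and 956 against 5.508 and 0) and less RPOB. With a replicate block, 7 genes were called in irx3-2 and 7 in Col-0 for lincomycin, and 0 elsewhere; over all genes the block called 337 between genotypes on lincomycin (1150 without), 18 on MS (44) and 24 in the interaction (133).

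Counts over all genes moved by more than 1.5 times under other settings too. Without the low-value filter they were 580, 4 and 29 in the comparisons on lincomycin, on MS and in the interaction; in fits of 2 groups 3311 on lincomycin and 0 on MS; by DESeq2 149 on MS and 396 in the interaction. Scaled to total reads they were 16054 (6835 with size factors) and 16396 (5921) for lincomycin in irx3-2 and Col-0. With 1 library left out they ranged over 3828 to 7252 and 3300 to 7117 for lincomycin in irx3-2 and Col-0, 116 to 1961 and 16 to 903 between genotypes on lincomycin and on MS, and 11 to 361 for the interaction. The cause was not tested. With 2 libraries a group, the SE of a member's change was 0.11 to 0.26 on the log2 scale, which limits the genotype comparisons, and at 34 to 230 reads per library the YCF2 copies are limited by counting error too.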
